A study of Mus musculus with 10 samples.

Results

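The regulators of G-protein signalling (RGS) described here are Rgs2, Rgs4, Rgs5, Rgs7, Rgs9, Rgs10, Rgs14, Rgs16 and Rgs19. They were taken by gene symbol, as every probe set annotated to exactly 1 gene of these names, which gave 15 probe sets of 9 genes among 12422 probe sets on the array that are not hybridisation controls. Their RNA was measured in visual cortex of wild-type C57Bl6 mice collected at postnatal day 18, when 4 days had passed since one eye was taken out at postnatal day 14. Deprived samples (5) are of the hemisphere opposite the lost eye, which loses most of its visual drive because most mouse optic axons cross. Non-deprived samples (5) are of the hemisphere on the same side as that eye, so animals of both groups had lost an eye and neither group is an intact control. The labels mention 4 mice and pooling but not how animals were spread over the 10 arrays, so p-values measure the spread between these samples, which may be technical.

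RGS proteins switch heterotrimeric G proteins off. A receptor loads the G alpha subunit with GTP, and the RGS domain speeds the hydrolysis of that GTP, which shortens signalling by alpha and by the beta-gamma dimer. Family members differ in the alpha subunits they act on, in the cells that make them and in how fast their transcripts respond to stimulation.

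No RGS probe set differed between deprived and non-deprived cortex at an adjusted p of 0.05 in limma. The count was 0 of the 12 probe sets, of 8 genes, bright enough to test, and the background was 0% of all 7453 probe sets tested. Adjusted p-values of the 12 ran from 0.992 to 0.998. At an unadjusted p under 0.05 there was 1, Rgs2, lower in deprived cortex, where 2.36% of all tested probe sets were lower by that rule and 4.79% passed it in either direction. An exact two-sided permutation test of 5 against 5 arrays gave no RGS probe set a p under 0.05. Estimates lay below 0 for 6 of the 12 and above 0 for 6, with a median log2 difference of 0.0064 beside 0.0066 over all tested probe sets. Deprived and non-deprived arrays overlapped for all 15 RGS probe sets, of which 3 were not tested. They did not overlap for 0.953% of all tested probe sets, so small a share that 15 probe sets cannot be set apart from it. Here and below a signal is a MAS5 intensity in arbitrary units, and a log2 difference is deprived minus non-deprived on log2(signal + 15.6), which understates changes of dim probe sets.

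**Figure D1:**
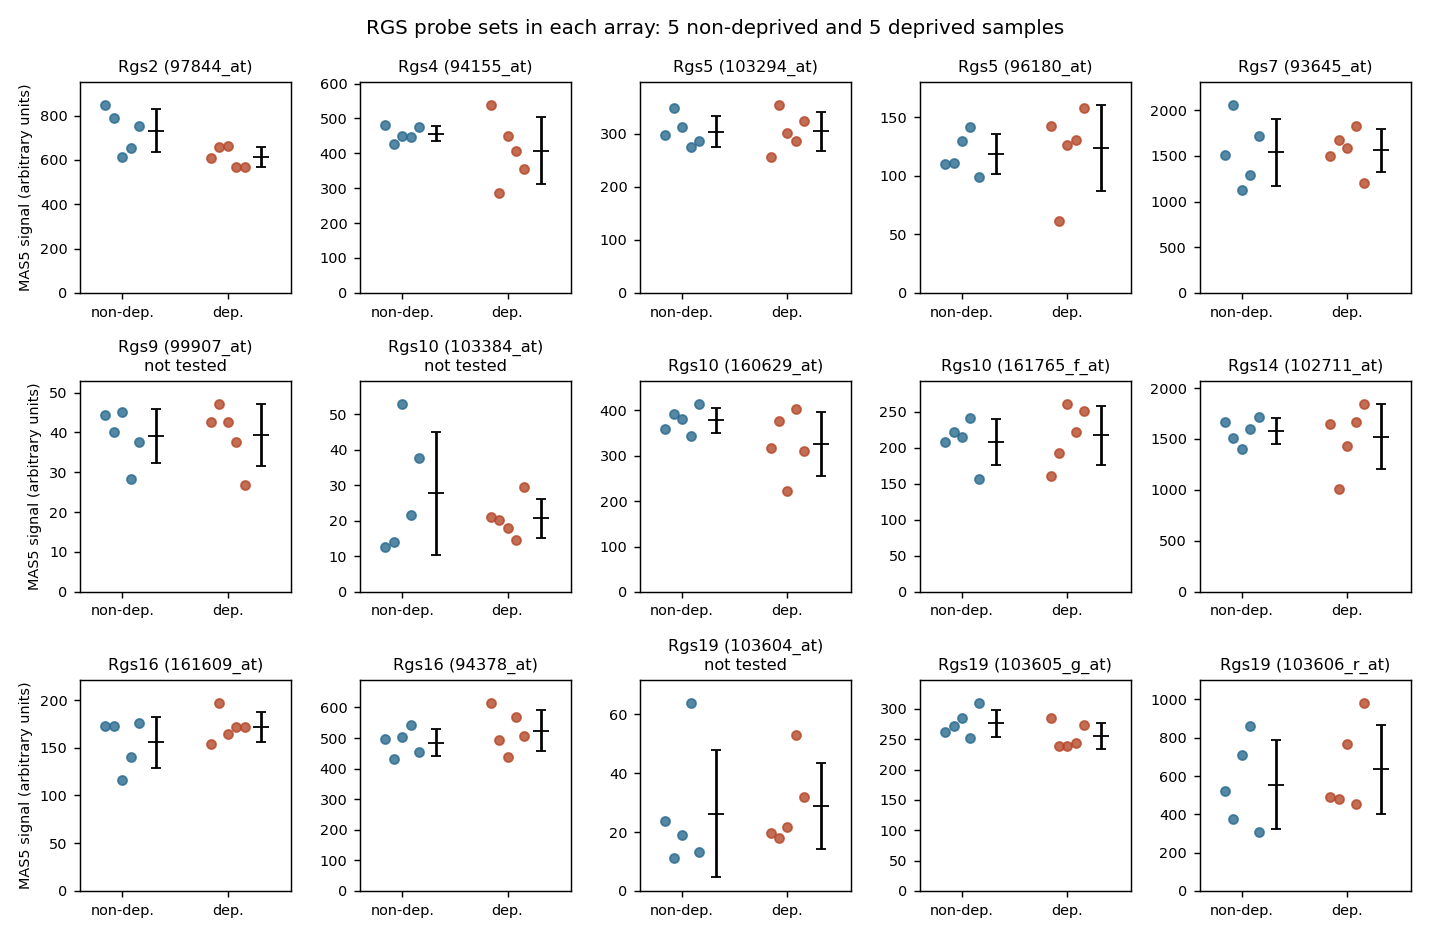
Each panel plots the MAS5 signal of 1 RGS probe set (vertical axis, arbitrary units, from 0) in the 5 non-deprived (blue) and 5 deprived (orange) arrays, in order of replicate number, with the group mean and SD in black. The 2 groups overlap in all 15 panels, and in the Rgs2 panel 3 deprived arrays lie below the lowest non-deprived array.

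**Figure D2:**
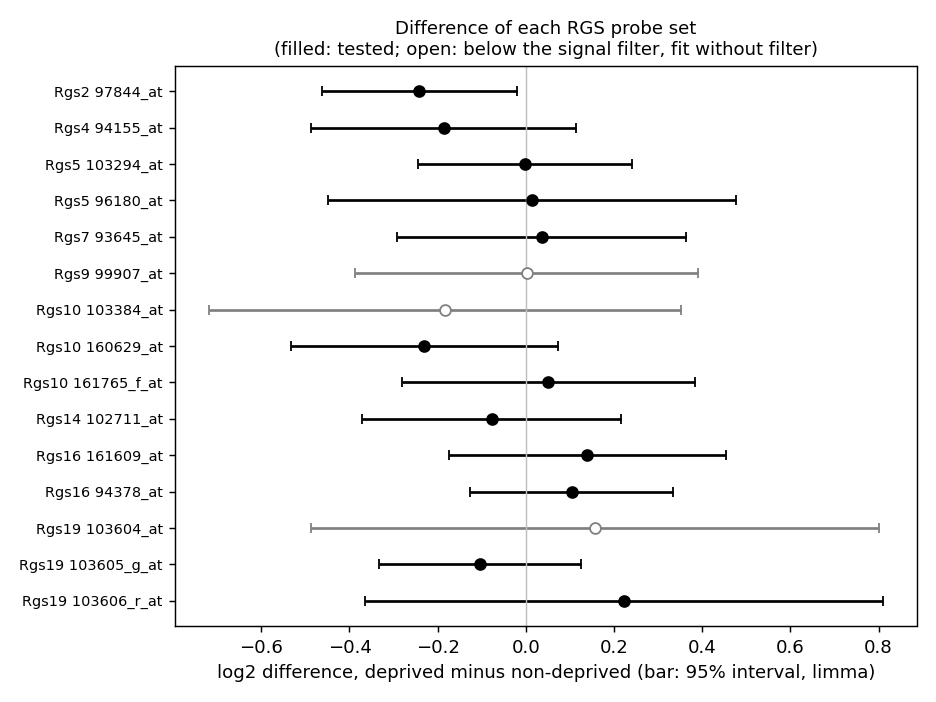
Points give the log2 difference, deprived minus non-deprived, of each RGS probe set, and bars its 95% interval in limma; open points are the 3 probe sets below the signal filter, taken from the fit without that filter. The interval of Rgs2, from -0.46 to -0.02, is the one that does not span 0 before adjustment.

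The R4 subfamily comprises small proteins that are little more than an RGS domain, here Rgs2, Rgs4, Rgs5 and Rgs16, whose genes all lie on chromosome 1. Rgs2 acts preferentially on Gq and is known as an early-response gene in neurons. Its signal was 611, 658, 663, 568 and 568 in deprived replicates 1 to 5. In non-deprived replicates 1 to 5 it was 849, 788, 615, 653 and 754. The 3 lowest deprived arrays lay below every non-deprived array, and the other deprived arrays fell within the lower part of the non-deprived range. Means were 613.7 ± 46.6 in deprived and 732 ± 96.3 in non-deprived cortex (SD, n = 5 each), or 16.1% lower. The log2 difference was -0.24 ± 0.10 (SE) with a 95% interval from -0.46 to -0.02. Its unadjusted limma p of 0.035 ranked 247 of 7453, its adjusted p was 0.992, and its exact permutation p was 0.0635 (n = 5 each). The unadjusted p moved between 0.0113 (without non-deprived replicate 3) and 0.102 (without non-deprived replicate 1) when single arrays were left out.

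Rgs4 acts on Gi and Gq and is one of the RGS transcripts best known from cortical neurons. It had signals of 539, 286, 451, 408 and 356 in deprived replicates 1 to 5. The non-deprived values were 483, 428, 451, 447 and 476. The non-deprived arrays stood close together, with a coefficient of variation of 4.91%, while the deprived arrays reached both below and above them, with one of 23.4%. The means, 408 ± 95.5 and 457 ± 22.4 (SD, n = 5 each), gave a log2 difference of -0.19 ± 0.14 (SE) with an interval from -0.49 to 0.11. Without deprived replicate 2, the lowest array, the difference was -0.07, and without deprived replicate 1, the highest, it was -0.29 (unadjusted p = 0.0396, adjusted p = 0.922).

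Rgs16 was measured by a pair of probe sets with positive estimates. The brighter (94378_at) had 615.0, 492, 439, 568 and 508 in deprived replicates 1 to 5 and 495, 433, 504, 542 and 454 in the non-deprived ones. The upper 2 deprived arrays exceeded every non-deprived array and the rest were interleaved. Its log2 difference was 0.10 ± 0.11 (SE), with an interval from -0.13 to 0.33, and it was 0.05 without deprived replicate 1 and 0.16 without deprived replicate 3. The dimmer (161609_at) ran from 154 to 197 in deprived and from 116 to 176 in non-deprived arrays, with a log2 difference of 0.14 ± 0.15 (SE), or 0.05 without non-deprived replicate 3. The estimates of Rgs16, known as a regulator of Gi signalling in the circadian pacemaker, lay on the other side of 0 from Rgs2 and Rgs4, and this contrast between genes was not tested.

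Rgs5, a common marker of brain pericytes, had estimates next to 0. The brighter probe set (103294_at) gave 256, 354, 300.7, 286 and 323 in deprived and 297, 348, 312, 274 and 286 in non-deprived replicates 1 to 5. These ranges nearly coincide, and the interval of the log2 difference, from -0.24 to 0.24, corresponds to a change between -15.6% and 18.2%. The second probe set (96180_at) had means of 124 ± 36.8 and 118 ± 17.1 (SD, n = 5 each) and a log2 difference of 0.01 ± 0.22 (SE), or 0.21 without deprived replicate 2, its lowest array at 61.6. Markers of mural cells, the class that includes pericytes, were summed in each array over the 7 that could be tested of 12 listed. The sums ran from 1376 to 1746 in deprived and from 1432 to 1686 in non-deprived arrays, and the mean log2 level of the list differed by 0.06 (exact permutation p = 0.532, n = 5 each). Anpep and Vtn had the smallest p of that list, with log2 differences of 0.28 ± 0.31 and 0.07 ± 0.15 (SE). The defining pericyte markers Pdgfrb, Abcc9 and Kcnj8 and the smooth muscle myosin Myh11 were below the signal filter. In tissue samples fewer cells of a type and less RNA per cell cannot be told apart.

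The upstream sequences of these 4 genes are shown because Rgs2 and Rgs4 had the lowest estimates among these 4, Rgs16 the highest, and Rgs5 is the immediate neighbour of Rgs4 on the chromosome. Each is the 250 bases before the RefSeq start (GRCm38.p6), 5′ to 3′ on the strand of the gene. Capitals mark matches to TGACG, the short binding site of the cAMP response element binding protein CREB, to GCGNGGGCG, an Egr site, or to TATAAA.
Rgs2, chr1:144004150-144004399, minus strand: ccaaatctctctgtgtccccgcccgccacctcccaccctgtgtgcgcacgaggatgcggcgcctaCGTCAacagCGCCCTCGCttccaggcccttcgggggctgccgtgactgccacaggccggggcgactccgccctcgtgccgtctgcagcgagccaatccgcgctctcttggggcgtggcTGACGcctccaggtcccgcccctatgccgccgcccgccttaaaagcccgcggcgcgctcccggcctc
Rgs4, chr1:169747643-169747892, minus strand: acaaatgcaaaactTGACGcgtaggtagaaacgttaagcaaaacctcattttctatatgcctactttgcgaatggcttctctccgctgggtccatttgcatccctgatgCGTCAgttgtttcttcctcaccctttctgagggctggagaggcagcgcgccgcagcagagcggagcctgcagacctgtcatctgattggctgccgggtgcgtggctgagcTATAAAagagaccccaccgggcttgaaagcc
Rgs5, chr1:169655251-169655500, plus strand: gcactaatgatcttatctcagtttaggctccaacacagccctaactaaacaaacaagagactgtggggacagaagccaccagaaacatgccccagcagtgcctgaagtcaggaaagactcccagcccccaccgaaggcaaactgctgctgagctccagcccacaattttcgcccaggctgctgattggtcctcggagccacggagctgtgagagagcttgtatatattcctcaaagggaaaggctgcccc
Rgs16, chr1:153740103-153740352, plus strand: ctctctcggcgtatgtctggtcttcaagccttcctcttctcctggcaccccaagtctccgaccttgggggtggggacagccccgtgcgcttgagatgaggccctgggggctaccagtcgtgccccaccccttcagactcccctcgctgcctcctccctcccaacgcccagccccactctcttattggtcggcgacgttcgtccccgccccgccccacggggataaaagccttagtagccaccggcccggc
Searches used both strands, except TATAAA, which was searched on the strand of the gene. Rgs2 and Rgs4 each held 2 matches to TGACG, a motif present at least once in 17.8% of all 32851 promoter windows of this length. The share of windows with 2 or more matches was not computed. The Rgs2 window had 72.4% G and C and the Rgs4 window 53.6%, beside a median of 52.4% over all windows. The shares were not matched for this content. Rgs2 also held 1 match to GCGNGGGCG (4.7% of windows) and Rgs4 1 TATAAA, whose first base lies 31 bases before the start (7.59% of windows). Neither held the full palindrome TGACGTCA (1.55% of windows), which contains TGACG, or the AP-1 motif TGANTCA (6.75%). None of the 5 motifs was found in the Rgs5 and Rgs16 windows. A match is a description of the sequence, and binding was not measured. RefSeq entries were found for 8 of the 9 genes. TGACG was absent from the windows of Rgs7, Rgs9, Rgs10 and Rgs19. Rgs10, whose brightest probe set had an estimate of -0.23, held none of the 5 motifs, and neither did Rgs7. Rgs9 held 1 TATAAA, and an Rgs19 window held 1 match to GCGNGGGCG. Whether motifs and differences go together was not tested.

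The R7 subfamily members Rgs7 and Rgs9 work as dimers with the G beta subunit Gnb5. Rgs7, a regulator of Gi and Go, is widespread in brain neurons. It had signals of 1501, 1675, 1591, 1833 and 1205 in deprived replicates 1 to 5. In the non-deprived replicates it had 1511, 2060, 1130.1, 1287 and 1721. All deprived values lay inside the non-deprived range, and the log2 difference was 0.04 ± 0.15 (SE) with an interval from -0.29 to 0.36. Gnb5, chosen for mention after its values were seen, had means of 819 ± 40.1 in deprived and 888 ± 89.1 in non-deprived cortex (SD, n = 5 each) and a log2 difference of -0.11 ± 0.09 (SE).

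Rgs9, known from striatal neurons and photoreceptors, was dim, at 26.7 to 47.1 in deprived and 28.4 to 45.2 in non-deprived arrays. It stayed below the filter, which corresponds to a signal of about 115, and was not tested; with no filter its log2 difference was 0.0024 ± 0.18 (SE). The 5 striatal markers that could be tested included Penk, a proenkephalin gene, with a mean of 1204 in deprived against 1141 in non-deprived arrays, and the phosphodiesterase Pde1b at 1592 and 1505. The list's mean log2 level differed by 0.04 (exact permutation p = 0.619, n = 5 each), with 2 estimates below 0 and 3 above. Those below 0 were of the dimmest markers, Drd2 at 121 in deprived against 125 in non-deprived arrays and Tac1 at 209 against 215. The striatal list also held Foxp1, which cortical neurons express, at a log2 difference of 0.17 ± 0.19 (SE).

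The R12 subfamily was represented by Rgs14 and Rgs10. Rgs14, a scaffold that also binds Ras and Rap proteins and is best known from hippocampal area CA2, had 1645, 1013, 1429, 1671 and 1845 in deprived replicates 1 to 5. The non-deprived values were 1666, 1511, 1401, 1599 and 1713. Deprived replicate 2 stood below all other arrays and deprived replicate 5 above them, and the remaining values were mixed. The log2 difference of -0.08 ± 0.14 (SE) became 0.06 ± 0.09 without deprived replicate 2. That array was also the lowest of the 10 for Rgs4, for the dimmer Rgs5 probe set and, narrowly, for Rgs19 103605_g_at. It was the highest of the 10 for the brighter Rgs5 probe set, the dimmer Rgs16 probe set and the untested Rgs9. Of the hippocampal markers, 3 could be tested, and their mean log2 level differed by -0.0068 (exact permutation p = 0.952, n = 5 each), with Ptpn5 at -0.14 ± 0.09 (SE) and Wfs1 at 0.17 ± 0.25, while the dentate gyrus marker Prox1 and the CA2 marker Pcp4 were below the filter.

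Rgs10, a small RGS protein abundant in microglia, was read by 3 probe sets, and differences between them were not tested. The brightest (160629_at) had 316, 378, 222, 402 and 311 in deprived replicates 1 to 5 and 359.6, 393, 382, 343 and 415 in the non-deprived ones. The 3 lowest deprived arrays lay below every non-deprived array, and the other deprived arrays were within the non-deprived range. Its means were 326 ± 70.05 and 378 ± 27.8 (SD, n = 5 each), with a log2 difference of -0.23 ± 0.14 (SE) and an interval from -0.53 to 0.07. Without deprived replicate 3 the difference was -0.11, and without deprived replicate 4 it was -0.31 (unadjusted p = 0.0459, adjusted p = 0.945). The second (161765_f_at, of a type shared within a sequence family) had a log2 difference of 0.05 ± 0.16 (SE), with 161 to 261 in deprived and 156 to 241 in non-deprived arrays. The third (103384_at) stayed below the filter at 14.5 to 29.4 and 12.6 to 52.9. Markers of microglia and blood myeloid cells lay on the other side of 0 from the brightest Rgs10 probe set, with 7 of 9 estimates above 0 and a median log2 difference of 0.11. Of all tested probe sets, 48.0% had an estimate below 0. Cd53 and Laptm5, with the smallest p of the list, had differences of 0.29 ± 0.15 and 0.19 ± 0.11 (SE), the latter on a family-type probe set. The brightest, Ctss and Csf1r, had 0.02 ± 0.12 and 0.11 ± 0.09, and C1qb (-0.09 ± 0.10) and Cx3cr1 (-0.02 ± 0.13) lay below 0. The contrast of this list with Rgs10 was not tested. The summed signal of the 9 tested markers ran from 7244 to 7501 in deprived and from 6463 to 7484 in non-deprived arrays. Their mean log2 difference was 0.09 (exact permutation p = 0.0794, n = 5 each). Aif1, Itgam, Fcer1g and Ptprc were below the filter.

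Rgs19, an RZ subfamily protein that regulates Gi and is also known as GAIP, was read by 3 probe sets as well. The group-type probe set 103605_g_at had 285, 239, 239, 244 and 274 in deprived and 262, 271, 286, 251.9 and 310.0 in non-deprived replicates 1 to 5. The 3 lowest deprived arrays lay below every non-deprived array and the other deprived arrays were mixed with them. The log2 difference was -0.10 ± 0.11 (SE), with an interval from -0.33 to 0.12, and ran from -0.14 to -0.06 with other settings or single arrays left out. The relaxed-design probe set 103606_r_at was the most variable RGS probe set tested, with a coefficient of variation of 36.5% in deprived and 41.7% in non-deprived arrays, and gave 0.22 ± 0.27 (SE). Its interval, from -0.36 to 0.81, allows anything from -22.3% to 75.3%. The estimate was 0.04 without non-deprived replicate 5 and 0.40 without non-deprived replicate 4. The third, 103604_at, ran from 17.9 to 52.9 and from 11.1 to 63.9 and was not tested.

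No positive correlation over the arrays was detected between probe sets of 1 gene. For the 4 genes with a pair of tested probe sets, Pearson's r over the 10 arrays (Spearman's coefficient in parentheses) was -0.537 (-0.401) for Rgs5, -0.479 (-0.515) for Rgs10, -0.267 (-0.503) for Rgs16 and -0.33 (-0.152) for Rgs19. Permutation p-values for r were 0.109, 0.163, 0.46 and 0.349, and for Spearman's coefficient 0.25, 0.133, 0.143 and 0.683. Over the 4 pairs the smallest adjusted permutation p was 0.326 for r and 0.286 for Spearman's coefficient. Leaving out the 2 arrays farthest from the median of the first probe set gave r of 0.0108, 0.0713, -0.379 and -0.0891.

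Of the 4 other RGS genes on the array, none had a tested probe set that passed an adjusted p of 0.05 in limma, and a second, dim probe set of Rgs11 was not tested. Rgs8, the immediate neighbour of Rgs16 and an R4 relative, had means of 803 ± 80.1 in deprived and 921 ± 41.7 in non-deprived cortex (SD, n = 5 each). Its log2 difference on a family-type probe set was -0.20 ± 0.09 (SE; unadjusted p = 0.0388, adjusted p = 0.992). The R7 relatives Rgs6 and Rgs11 had -0.49 ± 0.31 and 0.17 ± 0.14 (SE), and the R4 relative Rgs3 -0.04 ± 0.11. The Rgs6 values were 40.4 to 211 in deprived and 109.8 to 213 in non-deprived arrays.

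Estimates for genes of the G-protein pathway, mostly partners of RGS proteins, also lay on both sides of 0. Across 5 lists with 52 tested genes, each taken at its brightest probe set, none passed an adjusted p of 0.05 in limma. At an unadjusted p under 0.05 there was 1 lower (Rgs8) and 2 higher (Npy2r and Drd4), or 5.77% beside 4.79% of all tested probe sets. The 10 G alpha genes, the direct substrates of RGS proteins or their relatives, had 6 estimates below 0 and a median log2 difference of -0.0013. Gnas, the Gs alpha gene, averaged 18361 in deprived against 17468 in non-deprived arrays, and Gnao1, encoding Go alpha, 12169 against 12506. The estimates with the smallest p were those of Gnai2, 0.14 ± 0.07 (SE) on a family-type probe set, and Gnai3, -0.28 ± 0.24, both Gi alpha genes. The 8 G beta and gamma genes had 5 estimates below 0 and a median of -0.04, with Gnb1 at 0.19 ± 0.13 (SE), Gng10 at -0.13 ± 0.09, and the bright Gng3 and Gnb2 at 0.04 ± 0.07 and -0.05 ± 0.09.

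Effectors of G proteins had 7 of 10 estimates above 0 and a median of 0.08. Plcb1, the phospholipase C that Gq activates, had a log2 difference of 0.12 ± 0.08 (SE), the adenylyl cyclase Adcy2 0.11 ± 0.08 and the protein kinase C gene Prkcb 0.08 ± 0.08. Receptor kinases, arrestins and other RGS-domain proteins had 6 of 12 above 0 and a median of 0.0049. Among them the arrestin Arrb1, on a family-type probe set, was at 0.06 ± 0.11 (SE) and the receptor kinase Grk6 at -0.09 ± 0.11.

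Receptors coupled to Gq or Gi had 6 of 12 tested genes above 0 and a median of 0.0083, and 15 more on the array were below the filter. Npy2r, a neuropeptide Y receptor read by a family-type probe set, had means of 530.4 ± 42.5 in deprived and 426 ± 33.7 in non-deprived cortex (SD, n = 5 each). Its groups did not overlap, as was so for 0.953% of all tested probe sets. The log2 difference of Npy2r was 0.31 ± 0.09 (SE, limma adjusted p = 0.992). Drd4, a dopamine receptor, had 0.43 ± 0.20 (SE), Sstr4, a somatostatin receptor, 0.12 ± 0.10, and Gabbr1, a GABA-B receptor subunit, -0.06 ± 0.08.

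**Figure D3:**
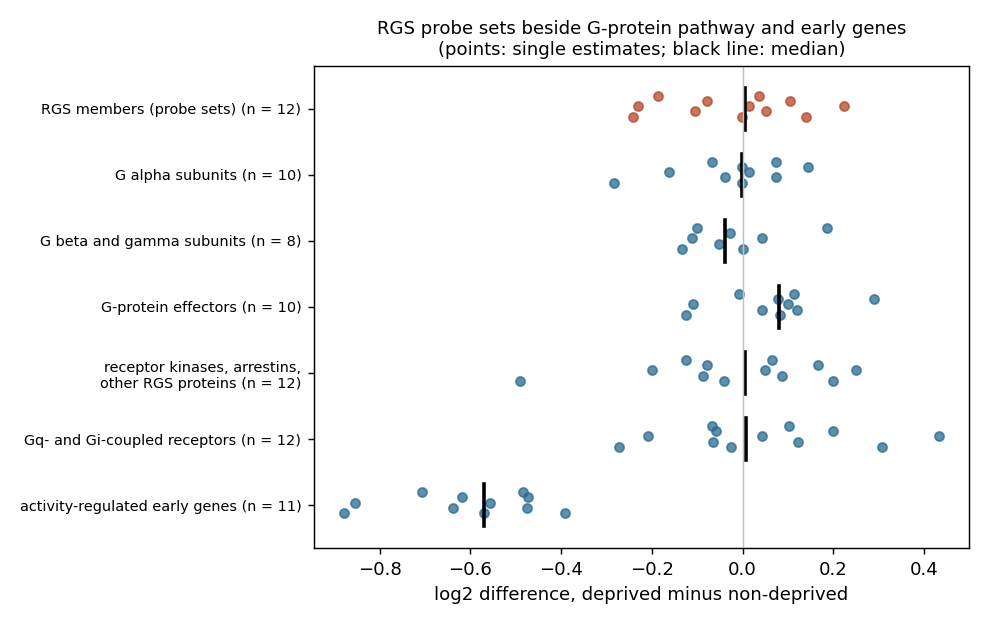
Points give log2 differences, deprived minus non-deprived, of the 12 tested probe sets of the RGS members (orange). Blue points are the genes of 5 G-protein lists and 1 list of activity-regulated early genes, and black lines are medians. The list with receptor kinases and arrestins also holds Rgs3, Rgs6, Rgs8 and Rgs11. RGS and pathway estimates scatter around 0. All 11 early genes, listed with results of these arrays known, lie below 0 with a median of -0.57. The difference between the lists was not tested.

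The early-gene list, chosen with results of these arrays known and so no independent evidence, had mean log2 levels lower by 0.60 in deprived cortex, with all 11 estimates below 0 at an unadjusted limma p under 0.05 and none past an adjusted p of 0.05. Its exact permutation p of 0.00794 (n = 5 each) is the smallest the design allows, and adjusted over 13 marker lists it was 0.103. Fos, an AP-1 factor, and the ERK phosphatase Dusp6 had log2 differences of -0.88 ± 0.15 and -0.62 ± 0.09 (SE), and the bright Egr1 and Dusp1 -0.47 ± 0.10 and -0.57 ± 0.13. Whether Rgs2 differed less than these genes was not tested.

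Markers of cortical excitatory neurons were bright, with Tbr1 averaging 6307 in deprived against 6334 in non-deprived arrays and Nrgn 5750 against 5610. The thalamus list also had markers above the filter, such as Lef1 at 685 against 629, while Gbx2 of that list was below it, at 21.8 against 23.1. Whether the samples held tissue of other regions was not tested. No marker list other than the early genes had an exact permutation p under 0.05 over the arrays, and adjusted values of these 12 ran from 0.516 to 0.952. Mean log2 differences were -0.02 for excitatory, -0.05 for pan-neuronal and 0.0062 for interneuron lists, and -0.03 for endothelium. They were 0.07 for astrocytes, 0.15 for the oligodendrocyte lineage, 0.06 for thalamus and 0.10 for erythrocytes. Single markers with an unadjusted limma p under 0.05 outside the early genes were the neurofilament gene Nefm, at -0.23 ± 0.10 (SE), and the astrocyte transporters Slc4a4 and Slc1a2, at 0.35 ± 0.13 and 0.38 ± 0.14, each with an adjusted p of 0.992. Their part in the RGS values was not tested. The remaining genes with the 2 smallest p of their lists were Camk2a (-0.29 ± 0.18) and Cux1 (-0.13 ± 0.08) for excitatory neurons, Gria2 (-0.07 ± 0.07) for all neurons, and Pvalb (0.18 ± 0.08) and Slc32a1 (0.13 ± 0.14) for interneurons. Others were Cldn5 (-0.19 ± 0.09) and Slc2a1 (-0.25 ± 0.13) for endothelium, Mag (0.29 ± 0.15) and Pdgfra (0.22 ± 0.14) for oligodendrocytes, Zic1 (0.16 ± 0.14) and Lef1 (0.10 ± 0.14) for thalamus, and Hba-a1 (0.19 ± 0.20) and Alas2 (0.09 ± 0.18) for erythrocytes. Medians of all probe sets lay between 190.8 and 209 over the 10 arrays, and arrays of 1 group correlated at 0.957 to 0.979 across tested probe sets.

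By Pearson correlation of log2 signal over the 10 arrays, among 6741 other tested probe sets of 1 gene, the probe sets most like Rgs2 were those of Skp1 (0.89), Gria2 (0.881, 92945_at), Nrsn1 (0.873), Jpt1 (0.852) and Sys1 (0.847). All 5 had lower means in deprived cortex, a direction that the choice by likeness to Rgs2 largely fixes. After subtraction of group means another 5 led, Rxylt1 (0.951), Cops7a (0.938), Cetn3 (0.936), Dnajc4 (0.926) and Vti1b (0.91), all with higher means in deprived cortex and log2 differences from 0.05 to 0.28. For Rgs7, the RGS probe set with the highest mean over the 10 arrays, the leading probe sets were Arfgef1 (0.898), Sspn (0.882), Itpr2 (0.878), Gna13 (0.871) and Ube2w (0.858), of which Ube2w, Arfgef1, Itpr2 and Sspn also led after subtraction of group means. These values are descriptions of 10 arrays that share 1 scaling, picked as the highest of all candidates.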

How the data were processed

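The authors deposited 1 linear MAS5 signal intensity per probe set and array (MAS5 per the submitters' processing notes, which as used here state neither version nor scaling target). Per the labels' protocols, about 10 µg of Trizol-extracted total RNA gave biotin-labelled cRNA. The mean of each deposited array without its lowest and highest 2% was 499 to 499.9, so the arrays share 1 scale, and changes are relative to it. No detection calls were used. The number of arrays limits the precision. Symbols from the platform annotation were updated through Entrez IDs: 10833 probe sets had 1 symbol, 396 several and 1193 none.

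Intensities were converted to log2(value + 15.6), the 10th percentile of all values. The 7453 probe sets with a mean log2 value at or above the 40th percentile were fitted in limma 3.58.1 (R 4.3.3; lmFit, eBayes with trend) without covariates and with Benjamini-Hochberg adjustment over all of them, after a check on simulated data. Differences of list levels were tested with exact permutation tests and correlations with 100000 permutations (NumPy 2.4.6). Alternatives were other pseudocounts, filters and scalings, no trend, a replicate block and single-array omissions. Members, lists and naming rules were chosen with earlier results of these data known: all member probe sets were named, and from each list the 2 genes with the smallest p, except 1 in the list of receptor kinases and arrestins that is not reported here, and the brightest 2, of which some in the marker lists are left out for length. Rgs3, Rgs6, Rgs11, Gnb5, C1qb, Cx3cr1, Drd2, Tac1 and the markers below the filter were named outside that rule, after their values were seen.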

Additional observations from a re-analysis of the deposited data

Results flagged for a closer look

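In the dimmer Rgs5 probe set (96180_at), deprived replicate 2 had a signal of 61.6, far from the other deprived arrays, of which the nearest had 125.9. The gap took up a share of 0.748 of the group's log2 range, above the Dixon limit for 5 values. This was 1 of 30 group-by-probe-set checks, and chance marks about 1 group in 20.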

How the results depend on the processing

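No RGS probe set, pathway gene or marker list passed an adjusted p of 0.05 under any of the 18 alternatives in which it was computed, and the smallest adjusted limma p of an RGS probe set was 0.757 (Rgs2, replicate block). The count over all tested probe sets, 0, became 6 with the replicate block, 2 with the stricter filter (60th percentile) and 2 with the larger pseudocount (20th percentile), and 0 to 5 when single arrays were left out. Same-numbered arrays deviated together at r over 0.1 in 4 of 5 pairs. For deprived replicates 1 to 4 the best-matching non-deprived array had the same number, and for deprived replicate 5 it was replicate 3. The labels give no pairing, so the block was kept as an alternative only. The count of RGS probe sets at an unadjusted p under 0.05, 1, was 0 to 1 over single-array omissions; it was 0 without deprived replicate 5 or non-deprived replicates 1, 2 or 5, and was Rgs4 or Rgs10 in place of Rgs2 without deprived replicate 1 or 4. Signs of 7 of the 12 differences held throughout. With single arrays left out, differences ran from -0.056 to 0.056 for Rgs5 103294_at, -0.044 to 0.21 for Rgs5 96180_at, -0.067 to 0.15 for Rgs7, -0.15 to 0.059 for Rgs14 and -0.041 to 0.15 for Rgs10 161765_f_at; Rgs5 96180_at was also -0.017 under median scaling and -0.030 under quantile normalization. The cause was not tested. Marker lists use no limma fit, so the block and the trend do not apply to them.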
